A study of Mus musculus with 24 samples.

Results

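The genes described here sense DNA damage, signal it and repair it in the mouse brain. They were chosen as a list of 41 symbols covering base excision and single-strand break repair, mismatch repair, nucleotide excision repair, double-strand break signaling and repair, Fanconi anemia crosslink repair, and the checkpoint and replication stress response. Of the 41 listed, 40 were matched to a probe, and Ercc6 was not analysed here. The 40 members were read among 757 probes of the nCounter Mouse Neuroinflammation panel, of which 703 carried a gene symbol and 54 did not. The panel hybridizes color-coded probes to RNA and counts them without amplification, and values are log2 normalized counts.

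Brain RNA was measured in 24 male C57BL/6J mice at 27 weeks of age, in 7 groups. The CT2A + RT-TMZ groups carried a brain tumor grown from CT2A, a mouse glioma cell line, and received cranial irradiation in 3 fractions of 9 Gy with temozolomide (TMZ) at 25 mg/kg during and 66.7 mg/kg after irradiation. The 9 Gy is the value in the labels, and the study's methods give a slightly lower dose per fraction. Extracellular vesicles (EVs) secreted by human neural stem cells of the named line followed in CT2A + RT-TMZ + UCI-191 EV, which comprised 3 mice, and in 3 more that formed CT2A + RT-TMZ + Shef6 EV, while CT2A + RT-TMZ + Veh mice (n = 4) received vehicle. Mice of RT-TMZ + UCI-191 EV (3), RT-TMZ + Shef6 EV (3) and RT-TMZ + Veh (4) had the chemoradiotherapy and no tumor. Control + Veh mice (n = 4) had neither tumor nor chemoradiotherapy. The tumor came from 1 cell line, all tumor-bearing mice measured here had been irradiated, and no EV group measured here was unirradiated. Each sample came from a separate mouse. The labels name the tissue only as brain, while the study excised prefrontal cortex and hippocampus for molecular assays and names the hippocampus for its expression data. In this bulk tissue a lower level can be fewer cells of a type or less RNA per cell, and these cannot be told apart.

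Temozolomide methylates DNA bases. N-methylated purines are removed by base excision repair, in which a glycosylase such as Mpg cuts out the base, Apex1 nicks the backbone, Parp1 and Parp2 bind the break, and Fen1 and Lig1 take part in closing it. O6-methylguanine is instead reversed by Mgmt or, where it is left, mispairs during replication and draws in mismatch repair (Pms2, Exo1). Ionizing radiation breaks both strands. The Mre11a-Rad50-Nbn complex and the kinase Atm mark such breaks through H2ax and Mdc1, and Xrcc6 (end joining) or Brca1 and Bard1 (homologous recombination) help to rejoin them. Stalled replication forks are sensed through single-stranded DNA coated by Rpa1, the Rad9a-Rad1-Hus1 clamp and its loader Rad17, and the kinase Atr, which activates Chek1. Most neurons of the adult brain do not divide, and recombination and fork protection serve mainly dividing cells.

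CT2A + RT-TMZ + Veh stood apart from the other groups in the table as a whole. Its samples had been multiplied by a normalization factor averaging 1.37, against 0.888 to 1.07 in the other groups, and the totals implied before that scaling were 861319 to 935164 counts there against 1008301 to 1476268 in all other samples. Summed endothelial markers (6 of 9 listed measured, none under background) were 1650 to 1949 normalized counts there and 2687 to 3888 in the other samples. Astrocyte markers (5 of 7) summed to 18440 to 23452 there, to 22521 to 26960 in the other treated groups, which overlapped with it, and to 26840 to 27694 in Control + Veh. Neuronal markers (9 of 11 measured) were above background, with sums of 53465 to 75995 over all samples. Of the 11 T, NK and B cell markers measured (of 15 listed), 7 to 10 were under the background level of 20 normalized counts in every sample of each group. The ribosomal protein probe Rps10 was at 11.70 to 12.07 on the log2 scale in CT2A + RT-TMZ + Veh and at 11.26 to 11.56 in all others. Ttr, a choroid plexus gene, was at 40 to 29738 normalized counts in treated samples and at 105 to 1235 in Control + Veh. The part of these differences in the results below was not tested. Values adjusted for Ttr or Mef2c are given as descriptions. Where a covariate did not overlap between 2 groups, its part and that of the group cannot be told apart.

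A moderated F test in limma across the 7 groups called 12 of the 40 members at an adjusted p of 0.05, against 363 of 757 probes (48.0%). The median span between a gene's highest and lowest group mean was 0.40 on the log2 scale among members and 0.52 among all probes. The 12 were Apex1, Atr, Hus1, Atm, Mdc1, Nthl1, H2ax, Ogg1, Rad50, Bard1, Rpa1 and Mpg. Of these, Atr, Hus1, Atm, Mdc1 and Rad50 were not called once all sample medians were set equal (median centring), nor under quantile normalization. The heat map of all members shows that in CT2A + RT-TMZ + Veh Apex1, Mpg and Ogg1 had their highest group means and Atm, Mdc1, Atr, Hus1 and Chek1 their lowest.

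**Figure D1:**
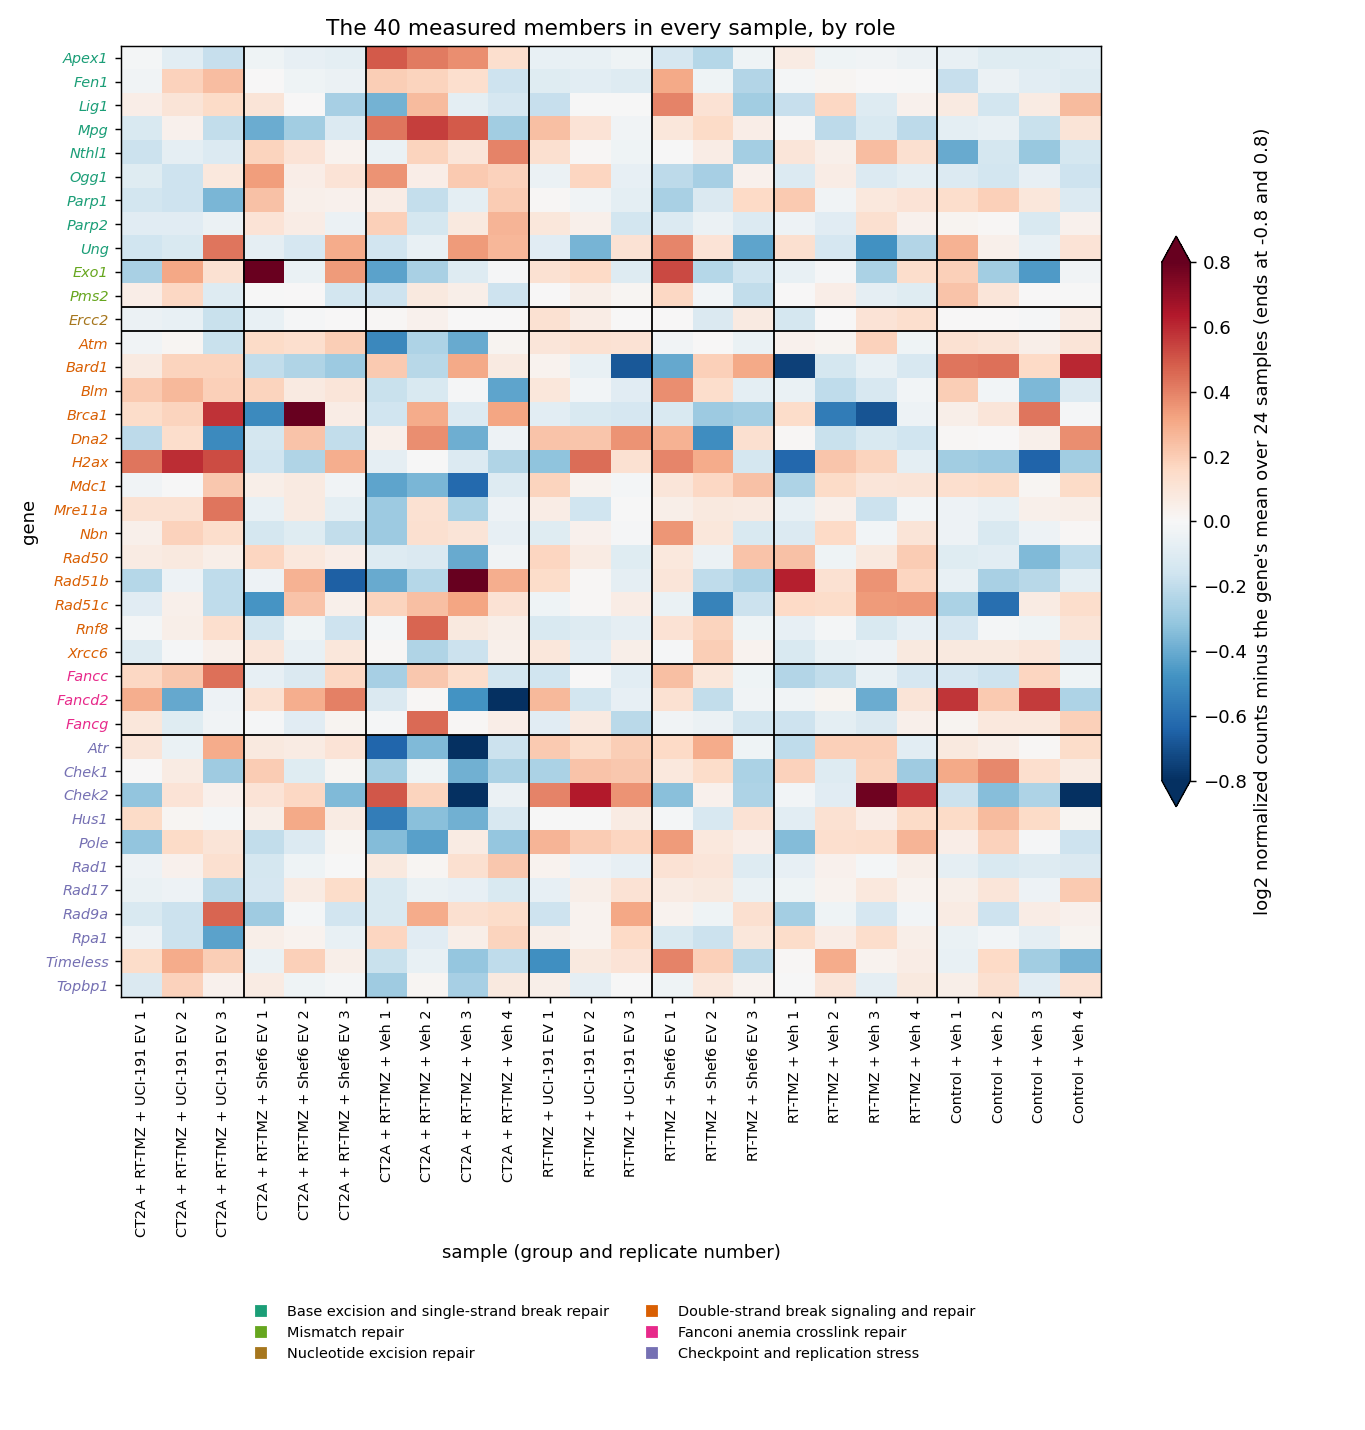
Each of the 40 members (rows, by role) in each of the 24 samples (columns, by group and replicate number). Color is the log2 normalized count minus the gene's mean over the 24 samples, with the scale ending at −0.8 and 0.8. Apex1 is above its mean and Atr below it in all 4 CT2A + RT-TMZ + Veh samples.

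The precision of the members differed with their counts. Parp1, Rpa1 and Apex1 had the highest mean levels (10.57, 9.78 and 9.54), and Ercc2 and Rnf8 came to the same rounded mean as Apex1. Rad51b, Exo1 and Brca1 had the lowest (3.74, 3.77 and 4.21), each with a mean under the background level of 20 normalized counts. These ranks say how well each probe counted, and do not compare transcripts of different genes. In 19 members the count implied before scaling was under 100 in at least 1 sample.

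Chemoradiotherapy without tumor was compared with Control + Veh to ask what irradiation and temozolomide left in the brain. Nthl1, a glycosylase for oxidized pyrimidines, rose, and Bard1, the partner of Brca1, fell. Those were the only 2 of 40 members called, where 17.8% of all 757 probes were (12.2% higher, 5.68% lower), and the median log2 fold change was −0.04 over members and 0.05 over all probes. At an unadjusted p of 0.05, 8 members passed, with 32.6% of probes. The 2 groups did not overlap in 10 members (21.8% of probes), 9 of them higher and 1 lower in RT-TMZ + Veh, while 14.5% of probes lay wholly higher and 7.27% wholly lower. Without replicate 1 of RT-TMZ + Veh 4 members were called, without replicate 4 of RT-TMZ + Veh or replicate 1 of Control + Veh 0, and without any of the other 5 samples 1. Beside these counts with a sample left out, the share of all probes called was not set.

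Nthl1 was at 7.01, 6.95, 7.16 and 7.04 in RT-TMZ + Veh and at 6.51, 6.77, 6.61 and 6.77 in Control + Veh. Every treated sample was above every control sample. The means were 7.04 ± 0.09 and 6.67 ± 0.13 (SD, n = 4 each), a log2 fold change of 0.38 (SE 0.10, limma, adjusted p = 0.034). The call was lost without replicate 1 or 3 of Control + Veh or replicate 2, 3 or 4 of RT-TMZ + Veh (adjusted p up to 0.0952), under quantile normalization (log2 fold change 0.18, adjusted p = 0.251), with Ttr as a covariate (0.36, adjusted p = 0.105), by the methods' t-test and with replicate number as a block.

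Bard1 was at 4.15, 4.76, 4.84 and 4.77 in RT-TMZ + Veh and at 5.33, 5.34, 5.06 and 5.50 in Control + Veh. It fell by 0.68 on the log2 scale (SE 0.18, limma, adjusted p = 0.0343), with replicate 1 of RT-TMZ + Veh far below the other 3. That value was under background (4.32 on this scale), and counts implied before scaling were 18 to 54 over the 24 samples. The call was kept without replicate 1 of RT-TMZ + Veh and lost without replicate 2 or 4 of that group or replicate 1, 2 or 4 of Control + Veh (adjusted p up to 0.0908), by the methods' t-test and with replicate number as a block.

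Among members that did not pass, Rad50 (log2 fold change 0.31, limma, adjusted p = 0.0548) and Chek2, an Atm-activated kinase (0.72, adjusted p = 0.069), were wholly higher in RT-TMZ + Veh. Chek2 was at 5.11, 5.04, 5.91 and 5.71 in RT-TMZ + Veh and at 4.96, 4.79, 4.89 and 4.27 in Control + Veh. Replicates 3 and 4 of RT-TMZ + Veh carried most of the gap. The control value of 4.27 was under background, and Chek2 counts implied before scaling were 15 to 63 over the 24 samples.

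**Figure D2:**
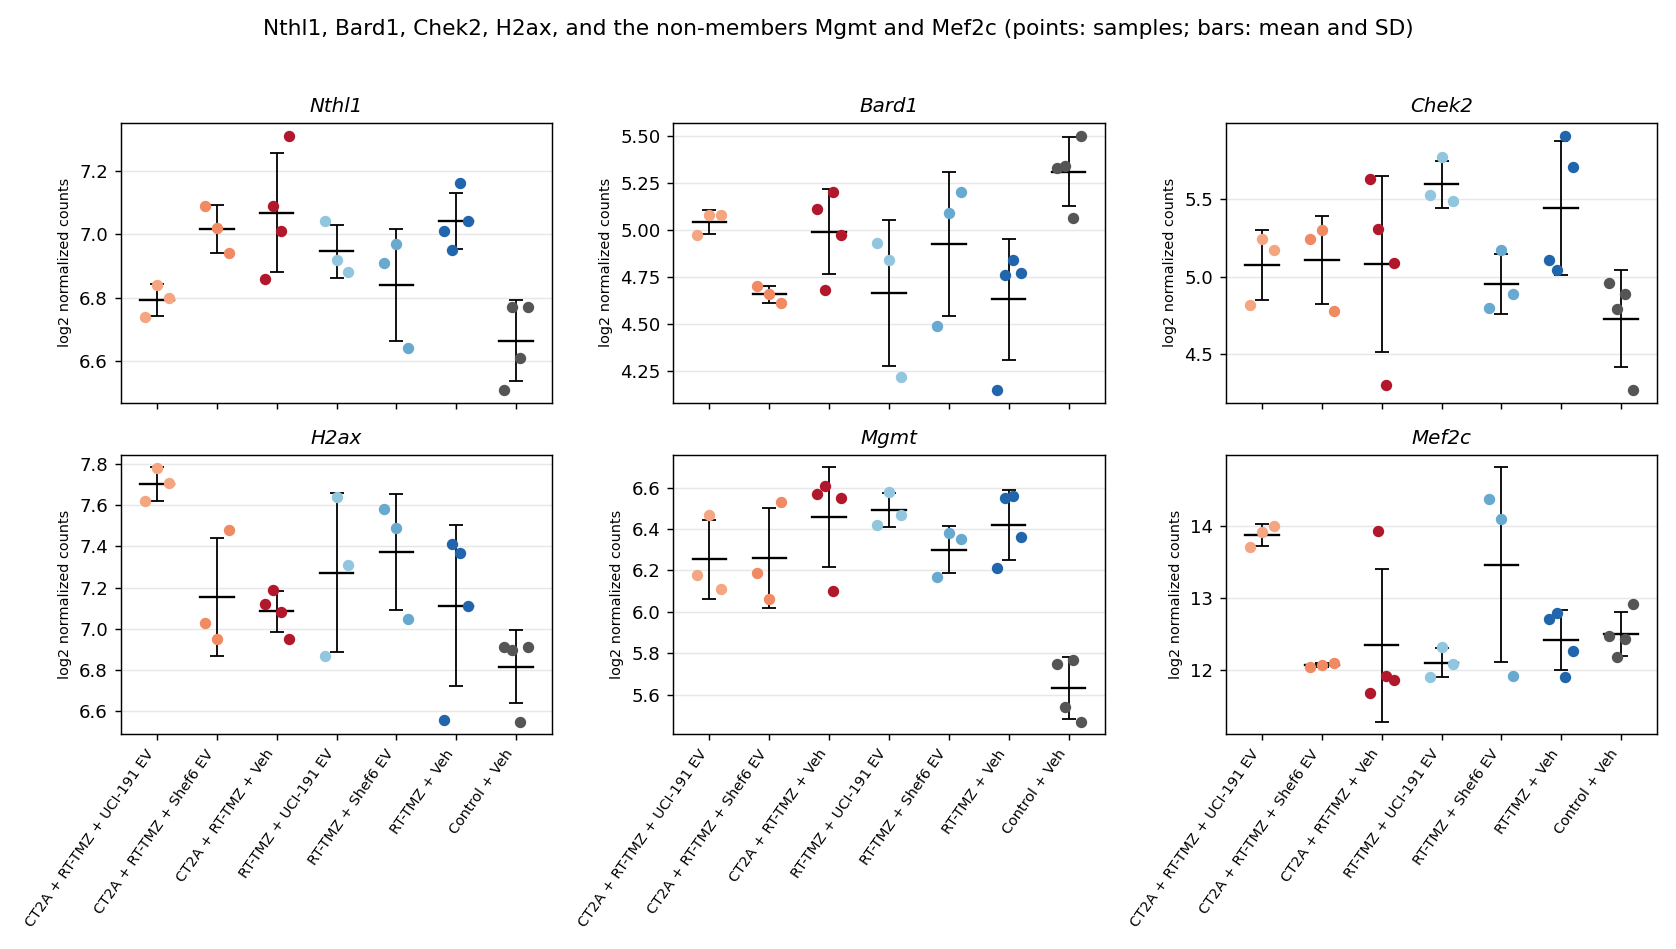
Log2 normalized counts (y axis, own scale per panel) of the members Nthl1, Bard1, Chek2 and H2ax and of the non-members Mgmt and Mef2c in each sample of the 7 groups (x axis), with horizontal bars at the mean and error bars of 1 SD. Control + Veh lies lowest for Mgmt and highest in mean for Bard1, and the 3 CT2A + RT-TMZ + UCI-191 EV samples lie at 7.62 to 7.78 for H2ax.

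Chemoradiotherapy with tumor was compared with Control + Veh in the same way. Apex1, the endonuclease of base excision repair, rose in CT2A + RT-TMZ + Veh, and Atr, Hus1, Chek1 (checkpoint) and Mdc1 (the H2ax-binding adaptor at double-strand breaks) fell. These were 5 of 40 members, 1 higher and 4 lower, where 21.1% of probes were called (7.79% higher, 13.3% lower). The groups did not overlap in 11 members and in 28.5% of probes. All comparisons with Control + Veh share its 4 samples. By role, 1 of 9 base excision genes rose and 7 of 9 had a log2 fold change above 0 (median 0.19), as 45.6% of probes did, while 3 of 11 checkpoint genes fell and 7 of 11 were below 0 (median −0.17), against a median of −0.06 over all probes. Of the 14 double-strand break genes 1 fell (median −0.08). No mismatch, nucleotide excision or Fanconi gene passed (0 of 6).

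Apex1 was at 10.03, 9.95, 9.91 and 9.67 in CT2A + RT-TMZ + Veh and at 9.48, 9.44, 9.44 and 9.45 in Control + Veh. The means were 9.89 ± 0.15 and 9.45 ± 0.02 (SD, n = 4 each), a 1.35-fold rise (log2 fold change 0.44, SE 0.09, limma, adjusted p = 0.014). It was called with any 1 sample left out (adjusted p 0.0015 to 0.0496), after median centring (0.65, adjusted p = 0.0207) and after quantile normalization (0.64, adjusted p = 0.0175). It was not called by the methods' t-test or with replicate number as a block. All samples of the other 6 groups lay between 9.31 and 9.60, below the 4 samples of CT2A + RT-TMZ + Veh.

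Atr was at 7.37, 7.65, 7.19 and 7.83 in CT2A + RT-TMZ + Veh and at 8.08, 8.05, 8.01 and 8.15 in Control + Veh. It fell by 0.56 on the log2 scale (SE 0.14, limma, adjusted p = 0.0288), and replicate 4 was nearest to the control samples. Hus1, a ring subunit of the clamp that helps Atr signal, was at 7.63, 7.85, 7.80 and 8.06 in CT2A + RT-TMZ + Veh and at 8.34, 8.44, 8.34 and 8.20 in Control + Veh. It fell by 0.50 (SE 0.11, adjusted p = 0.0201).

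Mdc1 was at 7.70, 7.76, 7.50 and 8.02 in CT2A + RT-TMZ + Veh and at 8.26, 8.27, 8.14 and 8.28 in Control + Veh, and fell by 0.49 (SE 0.12, limma, adjusted p = 0.0248). Chek1, the kinase that Atr activates, was at 5.59, 5.83, 5.48 and 5.61 in CT2A + RT-TMZ + Veh and at 6.17, 6.25, 6.00 and 5.93 in Control + Veh, and fell by 0.46 (SE 0.14, adjusted p = 0.0427). None of the 5 called members overlapped between the groups. In all 4 that fell, a tumor-bearing sample (replicate 4 for 3 of them, replicate 2 for Chek1) was the one nearest to the controls.

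Atm was at 8.76, 9.03, 8.87 and 9.30 in CT2A + RT-TMZ + Veh and at 9.40, 9.38, 9.32 and 9.38 in Control + Veh (log2 fold change −0.38, SE 0.12, limma, adjusted p = 0.0504), just outside the threshold. Nthl1 (0.40) and Ogg1, the glycosylase for 8-oxoguanine (0.33), both reached an adjusted p of 0.0596 and did not overlap with Control + Veh.

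**Figure D3:**
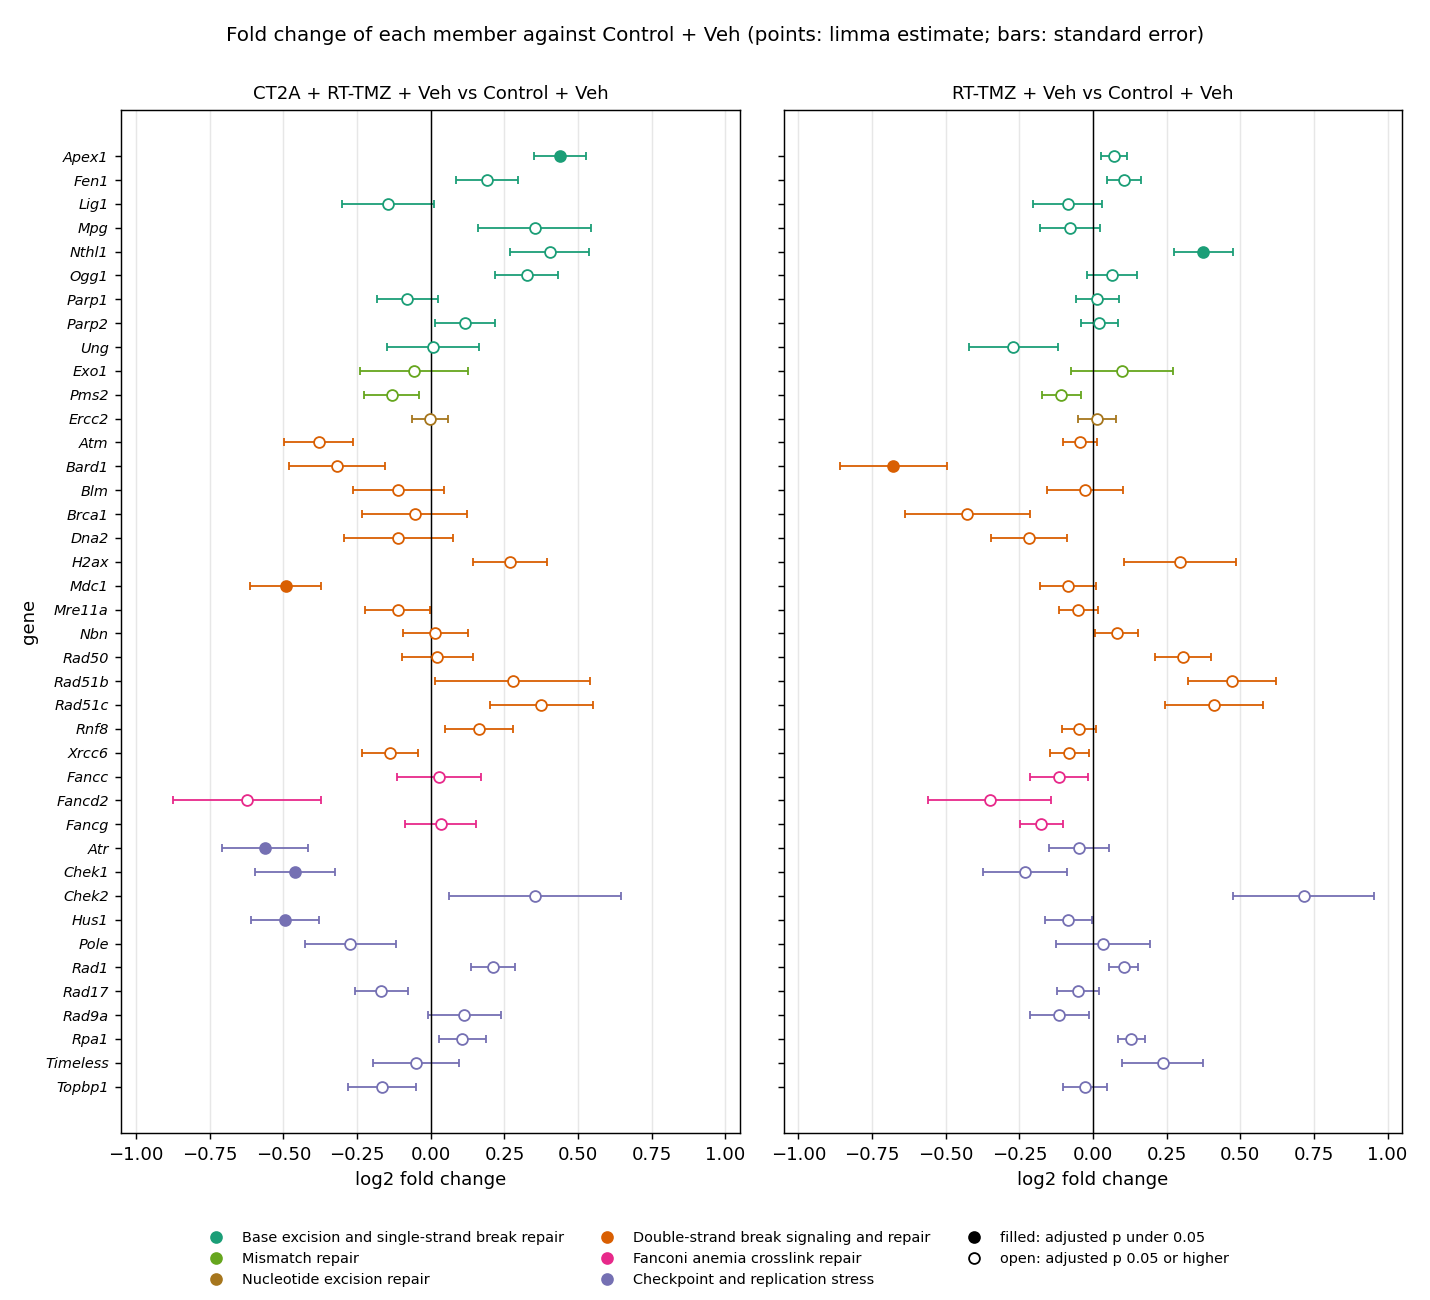
Log2 fold change (x axis) of each of the 40 members (rows, by role) in CT2A + RT-TMZ + Veh (left) and RT-TMZ + Veh (right) against Control + Veh, with bars of 1 standard error. Filled points are the members past an adjusted p of 0.05 in limma, 5 on the left and 2 on the right.

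The 4 falls depended on the scale on which samples were compared, and the rise of Apex1 did not. The median probe of CT2A + RT-TMZ + Veh samples was lower than that of Control + Veh samples by 0.22 on the log2 scale (8.08 against 8.29), so setting all sample medians equal adds that amount to every fold change. After such centring Atr was at −0.35 (limma, adjusted p = 0.122), Hus1 at −0.28 (adjusted p = 0.125), Mdc1 at −0.28 (adjusted p = 0.123) and Chek1 at −0.25 (adjusted p = 0.323), all still negative and none called. None of the 4 was called by the methods' t-test or with replicate number as a block either. The members called were then 6 higher and 0 lower (Apex1, Nthl1, Ogg1, Parp2, Rad1 and Rpa1), among 147 of 757 probes, 107 of them higher. Under quantile normalization the members called were 6 higher and 1 lower, among 135 of 757 probes, 73 of them higher. Over all probes the share of calls that were higher was 36.9% as deposited, 72.8% after centring and 54.1% under quantile normalization. Leaving out single samples lost the call of Atr, Hus1, Mdc1 and Chek1 in 6, 4, 6 and 7 of 8 cases. Of the 40 members 8 were called without replicate 2 and 7 without replicate 4 of CT2A + RT-TMZ + Veh, 1 or 2 without replicate 1 or 3 of that group or any 1 sample of Control + Veh. Beside these counts with a sample left out, the share of all probes called was not set.

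**Figure D4:**
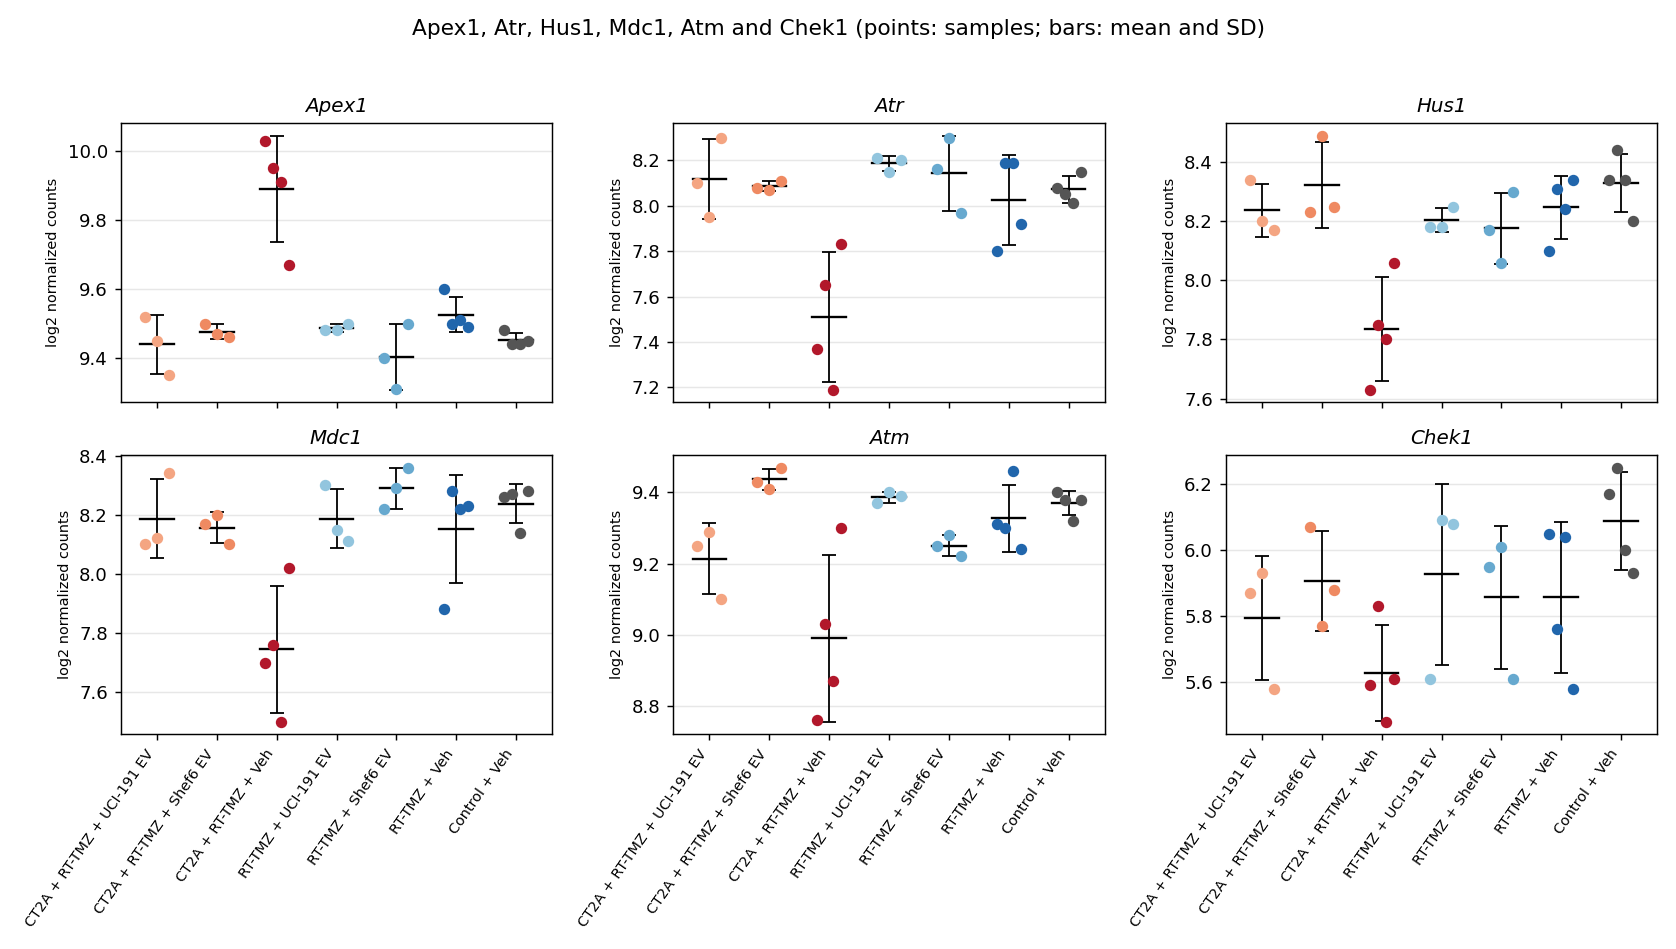
Log2 normalized counts (y axis, own scale per panel) of Apex1, Atr, Hus1, Mdc1, Atm and Chek1 in each sample of the 7 groups (x axis), with horizontal bars at the mean and error bars of 1 SD. All CT2A + RT-TMZ + Veh samples lie above every other sample for Apex1, at 9.67 to 10.03, and for Atr, Hus1, Mdc1, Atm and Chek1 that group has the lowest mean.

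The promoters of Apex1, Atr and Hus1 are shown because these 3 had small p-values over the 7 groups and opposite directions in CT2A + RT-TMZ + Veh. Each window runs from 250 bases before to 50 bases after a start site in RefSeq annotation of GRCm38.p6, on the gene's strand. For Apex1 and Atr that site is the annotated gene start, and for Hus1 it lies inside the gene, which on the minus strand starts at 9011236. Capitals mark CCAAT (the CCAAT box), CACGTG (an E-box) and GGGCGG (an Sp1 motif) on either strand, and no matches overlap.
Apex1, chr14:50924699-50924998, plus strand: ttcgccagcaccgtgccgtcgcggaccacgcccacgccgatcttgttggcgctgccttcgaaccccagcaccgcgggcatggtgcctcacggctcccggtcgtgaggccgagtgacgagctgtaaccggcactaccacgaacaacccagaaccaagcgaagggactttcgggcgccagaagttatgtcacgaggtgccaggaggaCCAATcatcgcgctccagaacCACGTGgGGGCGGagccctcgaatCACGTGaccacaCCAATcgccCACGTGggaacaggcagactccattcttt
Atr, chr9:95857347-95857646, plus strand: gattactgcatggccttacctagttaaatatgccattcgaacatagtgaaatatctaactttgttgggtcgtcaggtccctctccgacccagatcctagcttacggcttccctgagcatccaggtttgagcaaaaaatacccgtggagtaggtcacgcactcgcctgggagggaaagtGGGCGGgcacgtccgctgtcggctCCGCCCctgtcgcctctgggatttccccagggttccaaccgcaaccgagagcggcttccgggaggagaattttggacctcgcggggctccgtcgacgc
Hus1, chr11:9011142-9011441, minus strand: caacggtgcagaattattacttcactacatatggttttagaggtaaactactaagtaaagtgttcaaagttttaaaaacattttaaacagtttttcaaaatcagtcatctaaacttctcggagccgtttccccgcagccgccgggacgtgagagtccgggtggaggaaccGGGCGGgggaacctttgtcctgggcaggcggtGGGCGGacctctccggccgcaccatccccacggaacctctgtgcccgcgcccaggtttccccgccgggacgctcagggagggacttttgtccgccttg
The Apex1 window held 3 E-boxes, 2 CCAAT boxes and 1 Sp1 motif, and the Atr and Hus1 windows held 2 Sp1 motifs each and neither of the others. Windows were matched for 33 of the 40 members. GGGCGG was found in 21 of the 33 (63.6%) and in 35.7% of all 32851 windows, CACGTG in 5 (15.2%) and 7.15%, and CCAAT in 17 (51.5%) and 37.4%. The E2F motif TTTCGCGC was in 3 member windows (Nthl1, Rad51c and Topbp1) and in 0.323% of all, and its second form TTTGGCGC in 0 and in 0.514%. The ETS motif CCGGAAGT was in 3 (3.89% of all), the NRF1 motif in 4 (4.6%) and the CRE motif TGACGTCA in 1 (1.79%). Member windows had a median of 60.3% G and C and 23 CpG sites, against 52.7% and 7 in all windows. A match is a description of the letters and not a bound site.

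CT2A + RT-TMZ + Veh was set against RT-TMZ + Veh to ask what the tumor added to chemoradiotherapy. Apex1 was the only one of 40 members called (10.6% of probes were), with 4 members (21.1% of probes) not overlapping between the groups. It was at 9.60, 9.50, 9.51 and 9.49 in RT-TMZ + Veh, below all 4 tumor-bearing samples given above, and rose by a log2 fold change of 0.37 (SE 0.09, limma, adjusted p = 0.0432). The call was lost without any 1 sample of RT-TMZ + Veh or without replicate 1 or 3 of CT2A + RT-TMZ + Veh (adjusted p up to 0.13) and after median centring, where the log2 fold change was 0.63 (adjusted p = 0.0513). It was kept under quantile normalization (0.62, adjusted p = 0.0495), and lost by the methods' t-test, without the mean-variance trend, with replicate number as a block and with Ttr as a covariate. Hus1 (−0.41, adjusted p = 0.0565) did not overlap between the groups either. Atr (−0.52, adjusted p = 0.0813), Mdc1 (−0.41, adjusted p = 0.096) and Atm (−0.34, adjusted p = 0.11) overlapped. Without replicate 4 of CT2A + RT-TMZ + Veh 6 members were called, 2 higher and 4 lower. The share of all probes called was not set beside that count, so whether it was particular to the members was not tested. The median log2 fold change was −0.05 over members and −0.14 over all probes.

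EVs given after chemoradiotherapy without tumor were compared with vehicle. By limma neither line called any member or any other probe (0.0% of 757 in both). At an unadjusted p of 0.05, 3 members and 12.2% of probes passed with Shef6 EV, and 1 member and 5.94% of probes with UCI-191 EV. The smallest p for Shef6 EV was that of Rad51c, which acts in homologous recombination. Rad51c was at 6.61, 6.13 and 6.49 in RT-TMZ + Shef6 EV and at 6.81 to 7.01 in the 4 samples of RT-TMZ + Veh (log2 fold change −0.50, SE 0.14, adjusted p = 0.388), without overlap. Fancc (0.26), Rad51b (−0.43, under background in both groups) and the ubiquitin ligase Rnf8 (0.15) followed, at adjusted p-values of 0.406 to 0.41. For UCI-191 EV they were Dna2, a nuclease that resects broken ends (0.38), Rad51c (−0.24), Mpg (0.24) and Parp1 (−0.13), all at an adjusted p of 0.735. Without replicate 3 of RT-TMZ + Shef6 EV 1 member was called under Shef6 EV.

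With tumor, EVs were compared with CT2A + RT-TMZ + Veh. No member passed for either line by limma, where Shef6 EV called 5.02% of probes and UCI-191 EV 1.45%. At an unadjusted p of 0.05, 8 members passed with each line, and 29.3% of probes with Shef6 EV and 24.8% with UCI-191 EV. The members nearest the threshold under Shef6 EV were the ones that stood apart in CT2A + RT-TMZ + Veh. Apex1 was at 9.50, 9.47 and 9.46 in CT2A + RT-TMZ + Shef6 EV, below all 4 vehicle samples (log2 fold change −0.41, SE 0.11, adjusted p = 0.058). Hus1 was at 8.23, 8.49 and 8.25, above all 4 (0.49, SE 0.14, adjusted p = 0.0721).

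Atr was at 8.08, 8.07 and 8.11 in CT2A + RT-TMZ + Shef6 EV (0.58, SE 0.17, limma, adjusted p = 0.0725) and Atm at 9.43, 9.41 and 9.47 (0.45, SE 0.14, adjusted p = 0.0799). Each was wholly above CT2A + RT-TMZ + Veh. The Control + Veh samples were at 8.01 to 8.15 for Atr and 9.32 to 9.40 for Atm. Under UCI-191 EV, H2ax (0.62, SE 0.12, adjusted p = 0.0506), Apex1 (−0.45, adjusted p = 0.0736), Atr (0.61, adjusted p = 0.106) and Timeless, a fork-protection factor (0.40, adjusted p = 0.123), had the smallest p. Atr was at 8.10, 7.95 and 8.30 and Apex1 at 9.52, 9.45 and 9.35 in CT2A + RT-TMZ + UCI-191 EV.

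These EV comparisons use the CT2A + RT-TMZ + Veh samples that also define the tumor comparisons, so the 2 are not separate evidence. The counts depended on replicate 4 of CT2A + RT-TMZ + Veh, without which 6 members were called under Shef6 EV and 4 under UCI-191 EV. Without replicate 2 of that group the counts were 2 and 1, and without any other sample they were 0. The share of all probes called was not set beside these counts, so whether they were particular to the members was not tested. Median centring left both counts at 0, with sample medians higher in the EV groups than in their vehicle group by 0.29 (Shef6) and 0.19 (UCI-191) on the log2 scale.

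Whether an EV effect differed with tumor from that without was tested as an interaction. No member passed for Shef6 EV (6.08% of probes) or UCI-191 EV (1.85%), by limma. With replicate number as a block Hus1 and Mpg were called for Shef6 EV. Same-number samples deviated alike among the groups of that interaction, except CT2A + RT-TMZ + Veh. At an unadjusted p of 0.05, 6 members and 28.3% of probes passed with Shef6 EV, and 7 members and 19.8% of probes with UCI-191 EV. For Shef6 EV the differences of effects (with tumor minus without) were 0.56 for Hus1 (SE 0.16, adjusted p = 0.0588), 0.52 for Atm (SE 0.15, adjusted p = 0.059), −0.79 for Mpg (SE 0.25, adjusted p = 0.0649) and −0.41 for Rnf8 (adjusted p = 0.0889). For UCI-191 EV they were −0.41 for Apex1 (SE 0.12, adjusted p = 0.0772), 0.45 for Hus1 (adjusted p = 0.113), 0.60 for Timeless (adjusted p = 0.123) and −0.63 for Mpg (adjusted p = 0.171). Without replicate 4 of CT2A + RT-TMZ + Veh, 4 and 3 members were called. Without replicate 1 of RT-TMZ + Veh or replicate 3 of RT-TMZ + Shef6 EV, 1 was called for Shef6 EV. Beside the counts with a block or a sample left out, the share of all probes called was not set. Whether they were particular to the members was not tested.

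Each EV group was also compared with Control + Veh. RT-TMZ + Shef6 EV had no member called (5.42% of probes), and each of the other 3 had 1: Chek2 in RT-TMZ + UCI-191 EV (21.0% of probes), Bard1 in CT2A + RT-TMZ + Shef6 EV (18.0%) and H2ax in CT2A + RT-TMZ + UCI-191 EV (13.1%). In RT-TMZ + Shef6 EV the smallest p-values were those of H2ax (0.56, limma, adjusted p = 0.0955), Rad50 (0.27), Brca1 (−0.37, close to background in both groups) and Atm (−0.12). Without replicate 3 of that group H2ax was called (adjusted p = 0.0172).

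Chek2 was at 5.53, 5.77 and 5.49 in RT-TMZ + UCI-191 EV and at 4.96, 4.79, 4.89 and 4.27 in Control + Veh. It rose by a log2 fold change of 0.87 (SE 0.19, limma, adjusted p = 0.0127), without overlap, and the control value of 4.27 was under background. Without replicate 1 of the EV group 3 members were called and without replicate 4 of Control + Veh 2, with no share of all probes set beside either count. The call of Chek2 was lost without replicate 2 of the EV group (adjusted p = 0.0553), under quantile normalization, by the methods' t-test, and with Mef2c (0.68, adjusted p = 0.0799) or Ttr (0.48, adjusted p = 0.759) as a covariate. Ttr was at 14.25 to 14.85 in the EV group and at 6.72 to 10.27 in Control + Veh, without overlap.

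Bard1 was at 4.70, 4.66 and 4.61 in CT2A + RT-TMZ + Shef6 EV and at 5.33, 5.34, 5.06 and 5.50 in Control + Veh, and fell by 0.65 on the log2 scale (SE 0.15, limma, adjusted p = 0.0218). Control + Veh had the highest mean Bard1 of the 7 groups, 5.31 ± 0.18 (SD, n = 4). The other groups' means ran between 5.04 in CT2A + RT-TMZ + UCI-191 EV and 4.63 in RT-TMZ + Veh. With Mef2c (−0.53, adjusted p = 0.197) or Ttr (−0.65, adjusted p = 0.238) as a covariate the call was lost, as it was without replicate 2 or 3 of the EV group or replicate 1 of Control + Veh (adjusted p up to 0.0696), by the methods' t-test and with replicate number as a block. Mef2c was at 12.04 to 12.09 in the EV group and at 12.17 to 12.91 in Control + Veh, without overlap.

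H2ax, the histone variant that is phosphorylated around double-strand breaks, was at 7.62, 7.78 and 7.71 in CT2A + RT-TMZ + UCI-191 EV and at 6.91, 6.90, 6.55 and 6.91 in Control + Veh. It rose 1.85-fold (log2 fold change 0.89, SE 0.12, limma, adjusted p = 0.00811) and was called with any 1 sample left out (adjusted p up to 0.0457). Without replicate 4 of Control + Veh 2 members were called. The probe counts the transcript and not the phosphorylated protein. Mef2c, a neuronal transcription factor, was at 13.71 to 14.00 in the same 3 samples and at 12.17 to 12.91 in Control + Veh. With Mef2c as a covariate H2ax was at 0.70 (adjusted p = 0.646), and with Ttr at 0.63 (adjusted p = 0.269). Ttr was at 11.87 to 14.05 in the same 3 samples and at 6.72 to 10.27 in Control + Veh. Neither covariate overlapped between these groups.

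High H2ax and high Mef2c also stood together in replicates 1 and 2 of RT-TMZ + Shef6 EV, where H2ax was at 7.58 and 7.49 and Mef2c at 14.38 and 14.10. In replicate 3 H2ax was at 7.05 and Mef2c at 11.91. They did not in replicate 2 of CT2A + RT-TMZ + Veh, with Mef2c at 13.93 and H2ax at 7.19, or in replicate 2 of RT-TMZ + UCI-191 EV, with Mef2c at 12.31 and H2ax at 7.64.

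The tumor and no-tumor groups were compared within each EV line, and the lines within each tumor state. No member passed in any of these 4 comparisons by limma. With Shef6 EV, 0.0% of probes were called between tumor and no tumor, and the smallest p were those of Atm (0.19), Mpg (−0.36), Rnf8 (−0.20) and Ogg1 (0.31), at adjusted p-values of 0.37 to 0.387. With UCI-191 EV, 12.8% of probes were called, and Fancc (0.35, adjusted p = 0.0786), Chek2 (−0.52, adjusted p = 0.0828), Rpa1 (−0.29, adjusted p = 0.113) and Parp1 (−0.20, adjusted p = 0.118) came nearest. After median centring 6 members were called there, all higher with tumor, among 153 of 757 probes, 126 of them higher.

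UCI-191 EV against Shef6 EV called 0.0% of probes without tumor, where Chek2 (0.64, limma, adjusted p = 0.363), Rnf8 (−0.19), Atm (0.14) and Rad51c (0.26) had the smallest p. With tumor it called 6.61%. Parp1 was at 10.42, 10.40 and 10.20 in CT2A + RT-TMZ + UCI-191 EV and at 10.80, 10.61 and 10.60 in CT2A + RT-TMZ + Shef6 EV (−0.33, SE 0.09, adjusted p = 0.0706), without overlap. H2ax (0.55, adjusted p = 0.0892), Nbn (0.27, adjusted p = 0.0946) and Atm (−0.22, adjusted p = 0.115) followed. With Mef2c as a covariate all 4 turned sign, and the Mef2c ranges of these 2 groups, 13.71 to 14.00 and 12.04 to 12.09, did not overlap.

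The 6 members with the smallest p of the F test were Apex1 (adjusted p = 0.000121), Atr (0.00253), Hus1 (0.00304), Atm (0.00426), Mdc1 (0.00445) and Nthl1 (0.0195), by limma. Atr, Hus1, Atm and Mdc1 lost this call after median centring and under quantile normalization, and Apex1 and Nthl1 kept it under both. In a test over all groups that lets their variances differ, only Atm of the 6 was called. The values of the 6 in the groups not yet given show where the spread lay. Apex1 was at 9.40, 9.31 and 9.50 in RT-TMZ + Shef6 EV and at 9.48, 9.48 and 9.50 in RT-TMZ + UCI-191 EV. After CT2A + RT-TMZ + Veh at 9.89, the group means of Apex1 ran between 9.40 and 9.53. Neighbours in that order overlapped in their samples, while RT-TMZ + Veh (9.49 to 9.60) lay wholly above Control + Veh (9.44 to 9.48).

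Atr was at 8.21, 8.15 and 8.20 in RT-TMZ + UCI-191 EV, at 8.16, 8.30 and 7.97 in RT-TMZ + Shef6 EV and at 7.80, 8.19, 8.19 and 7.92 in RT-TMZ + Veh. Only replicate 1 of RT-TMZ + Veh reached down into the range of CT2A + RT-TMZ + Veh. Hus1 was at 8.34, 8.20 and 8.17 in CT2A + RT-TMZ + UCI-191 EV, at 8.18, 8.18 and 8.25 in RT-TMZ + UCI-191 EV, at 8.17, 8.06 and 8.30 in RT-TMZ + Shef6 EV and at 8.10, 8.31, 8.24 and 8.34 in RT-TMZ + Veh. Only replicate 2 of RT-TMZ + Shef6 EV met the highest CT2A + RT-TMZ + Veh value of 8.06.

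Atm was at 9.25, 9.29 and 9.10 in CT2A + RT-TMZ + UCI-191 EV, at 9.37, 9.40 and 9.39 in RT-TMZ + UCI-191 EV, at 9.25, 9.28 and 9.22 in RT-TMZ + Shef6 EV and at 9.31, 9.30, 9.46 and 9.24 in RT-TMZ + Veh. After CT2A + RT-TMZ + Veh at a mean of 8.99, CT2A + RT-TMZ + UCI-191 EV was next lowest at 9.21, and replicate 4 of the vehicle group, at 9.30, lay above all its samples.

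Mdc1 was at 8.10, 8.12 and 8.34 in CT2A + RT-TMZ + UCI-191 EV, at 8.17, 8.20 and 8.10 in CT2A + RT-TMZ + Shef6 EV, at 8.30, 8.15 and 8.11 in RT-TMZ + UCI-191 EV, at 8.22, 8.29 and 8.36 in RT-TMZ + Shef6 EV and at 7.88, 8.28, 8.22 and 8.23 in RT-TMZ + Veh. All group means but that of CT2A + RT-TMZ + Veh (7.75) were between 8.15 and 8.29. Nthl1 was at 6.74, 6.84 and 6.80 in CT2A + RT-TMZ + UCI-191 EV, at 7.09, 7.02 and 6.94 in CT2A + RT-TMZ + Shef6 EV and at 6.86, 7.09, 7.01 and 7.31 in CT2A + RT-TMZ + Veh. It was at 7.04, 6.92 and 6.88 in RT-TMZ + UCI-191 EV and at 6.91, 6.97 and 6.64 in RT-TMZ + Shef6 EV. Control + Veh had the lowest Nthl1 mean of the 7 groups (6.67) and overlapped only with CT2A + RT-TMZ + UCI-191 EV and RT-TMZ + Shef6 EV.

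H2ax averaged 7.70 ± 0.08 in CT2A + RT-TMZ + UCI-191 EV, 7.15 ± 0.29 in CT2A + RT-TMZ + Shef6 EV, 7.08 ± 0.10 in CT2A + RT-TMZ + Veh, 7.27 ± 0.39 in RT-TMZ + UCI-191 EV, 7.37 ± 0.28 in RT-TMZ + Shef6 EV, 7.11 ± 0.39 in RT-TMZ + Veh and 6.82 ± 0.18 in Control + Veh (SD, F test, limma, adjusted p = 0.0277). Chek1 averaged 5.63 ± 0.15 in CT2A + RT-TMZ + Veh, 5.79 to 5.93 in the 5 groups between, and 6.09 ± 0.15 in Control + Veh (adjusted p = 0.204). Chek2 averaged 5.60 ± 0.15 in RT-TMZ + UCI-191 EV, 5.44 ± 0.43 in RT-TMZ + Veh, 4.95 to 5.11 in the other 4 treated groups and 4.73 ± 0.31 in Control + Veh (adjusted p = 0.101). Neighbours in each of these orders overlapped, with 2 exceptions for H2ax. CT2A + RT-TMZ + UCI-191 EV lay wholly above RT-TMZ + Shef6 EV. The 6.95 to 7.19 of CT2A + RT-TMZ + Veh lay wholly above the 6.55 to 6.91 of Control + Veh.

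Over the 7 groups, the median span of group means was 0.33 among the 9 base excision genes and 0.52 among all probes. Mpg spanned 0.56 and Apex1 0.49. Of the 9 genes 4 passed the F test, where 48.0% of probes did. Mpg, the glycosylase for N-methylated purines, was at 7.22, 7.34, 7.28 and 6.51 in CT2A + RT-TMZ + Veh, so that 3 samples were above all other samples of the study and replicate 4 was among the lowest. Its group means were 6.53 ± 0.15 in CT2A + RT-TMZ + Shef6 EV, 7.09 ± 0.39 in CT2A + RT-TMZ + Veh and 6.74 ± 0.12 in Control + Veh (SD), and the F test gave an adjusted p of 0.05, rounded, just inside the threshold. The tumor comparison with Control + Veh gave 0.35 (limma, adjusted p = 0.227).

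Ogg1 was at 7.29, 7.01 and 7.07 in CT2A + RT-TMZ + Shef6 EV and at 7.32, 7.01, 7.17 and 7.14 in CT2A + RT-TMZ + Veh, with means of 7.12 and 7.16. In Control + Veh it was at 6.85, 6.81, 6.89 and 6.79, below both groups. The other 4 groups averaged 6.81 to 6.98, and neighbours in that order overlapped (F test, limma, adjusted p = 0.0319).

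Parp1, the break sensor, had group means between 10.34 ± 0.12 in CT2A + RT-TMZ + UCI-191 EV and 10.67 ± 0.11 in CT2A + RT-TMZ + Shef6 EV (SD, n = 3 each), with Control + Veh at 10.65 ± 0.13 (F test, limma, adjusted p = 0.101). Lig1, the replicative DNA ligase, averaged 7.06 to 7.25 (adjusted p = 0.83). Of the mismatch repair genes, Pms2 averaged 9.22 to 9.36 (adjusted p = 0.723) and Exo1 3.57 to 4.13, with a mean under background in every group. The mean over the 9 base excision genes was 7.997 to 8.074 in CT2A + RT-TMZ + Veh samples and 7.777 to 7.951 in all other samples, a description with no test.

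**Figure D5:**
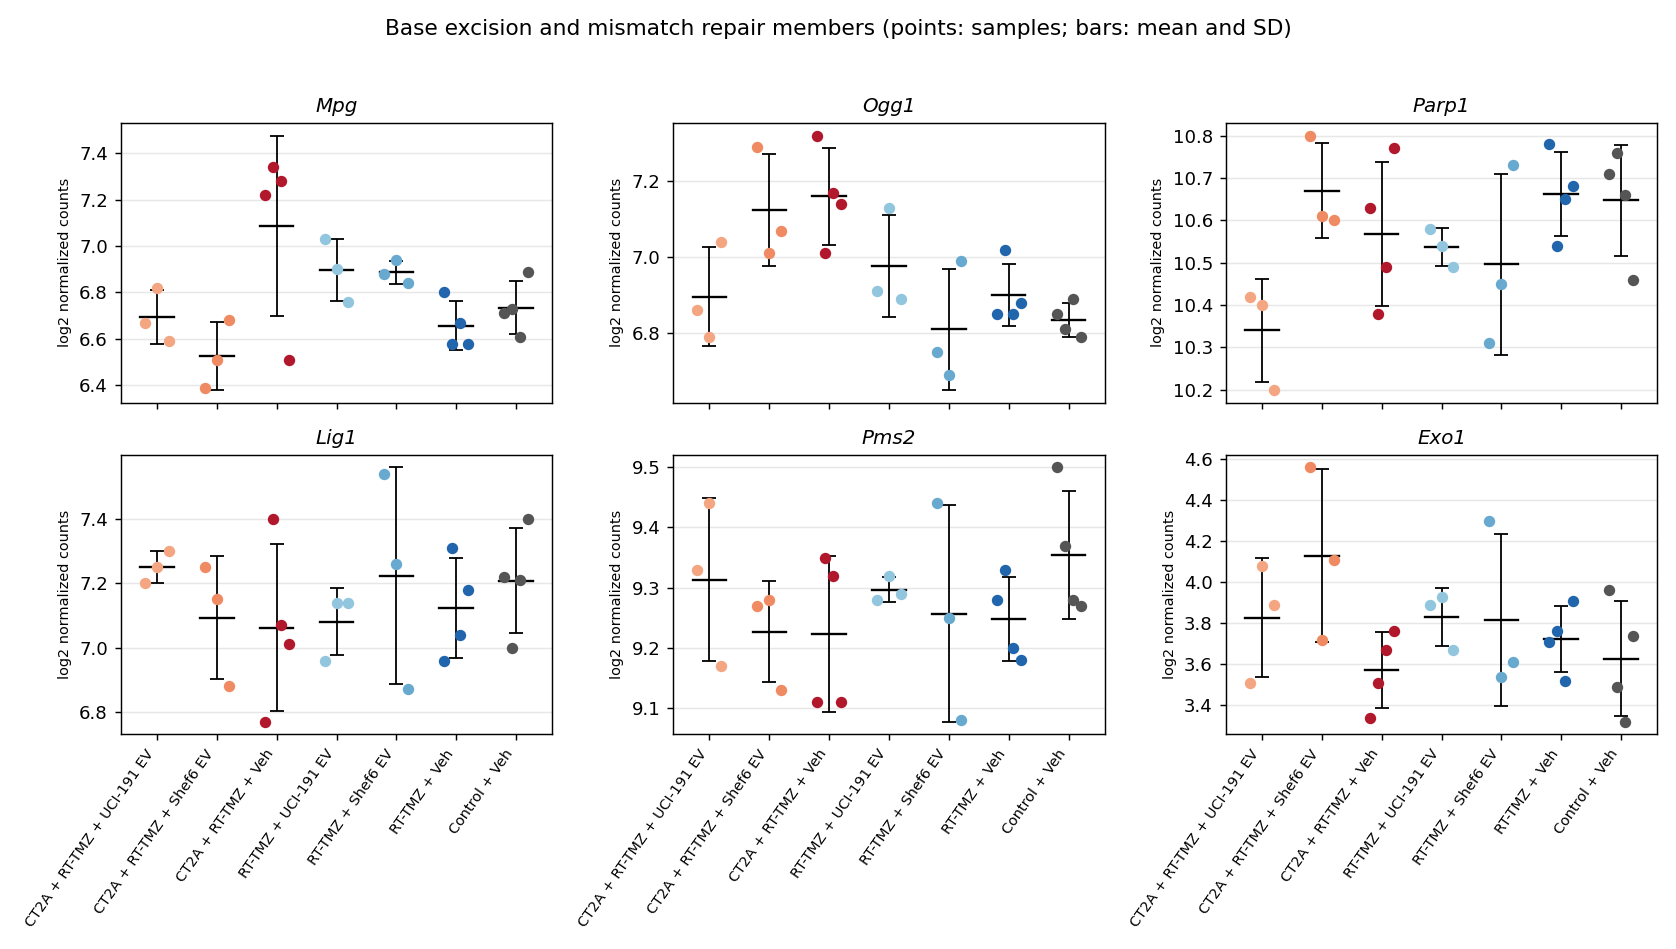
Log2 normalized counts (y axis, own scale per panel) of the base excision genes Mpg, Ogg1, Parp1 and Lig1 and the mismatch repair genes Pms2 and Exo1 in each sample of the 7 groups (x axis), with horizontal bars at the mean and error bars of 1 SD. Replicates 1 to 3 of CT2A + RT-TMZ + Veh lie above all other samples for Mpg, with replicate 4 at 6.51, and the Lig1 and Pms2 groups overlap.

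Among the double-strand break genes, Rad50 averaged 7.87 to 7.93 in the 4 EV groups, 7.66 ± 0.17 in CT2A + RT-TMZ + Veh, 7.95 ± 0.12 in RT-TMZ + Veh and 7.64 ± 0.13 in Control + Veh (SD, n = 4 for each vehicle group, F test, limma, adjusted p = 0.0347). The lowest means were thus those of the untreated and the tumor vehicle groups. Rad51c averaged 6.41 to 6.67 in the EV groups, below 6.88 ± 0.09 in CT2A + RT-TMZ + Veh and 6.91 ± 0.11 in RT-TMZ + Veh, and 6.50 ± 0.34 in Control + Veh (adjusted p = 0.0898). Xrcc6, the Ku70 subunit of end joining, averaged 8.71 to 8.87 (adjusted p = 0.497), and Brca1 was too close to background to order (3.92 to 4.51, adjusted p = 0.289).

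Fancd2, which is monoubiquitinated at crosslinks, averaged 4.23 ± 0.37 in CT2A + RT-TMZ + Veh and 4.85 ± 0.39 in Control + Veh (SD, n = 4 each), with an F test adjusted p of 0.155 in limma. Of the checkpoint genes, Rad9a averaged 6.84 to 7.11 (adjusted p = 0.567) and Timeless between 6.79 ± 0.08 in CT2A + RT-TMZ + UCI-191 EV and 6.38 ± 0.10 in CT2A + RT-TMZ + Veh (adjusted p = 0.204). Rpa1, lowest in CT2A + RT-TMZ + UCI-191 EV (9.57 ± 0.20) and highest in RT-TMZ + Veh (9.88 ± 0.05), passed the F test (adjusted p = 0.0442). The mean over the 11 checkpoint genes was 7.133 to 7.322 in CT2A + RT-TMZ + Veh and 7.295 to 7.525 in all other samples, so the ranges met.

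Of 50 other repair genes listed, the panel measured 5 (Mgmt, Prkdc, Ddb2, Pcna and Smc1a). Mgmt, which removes the methyl group from O6-methylguanine, was at 6.57, 6.61, 6.10 and 6.55 in CT2A + RT-TMZ + Veh, at 6.21, 6.55, 6.56 and 6.36 in RT-TMZ + Veh and at 5.75, 5.54, 5.77 and 5.47 in Control + Veh. It rose in all 6 treated groups against Control + Veh, by log2 fold changes of 0.62 to 0.86 (limma, adjusted p 0.00186 to 0.0305), and no treated sample overlapped with the controls. In no EV group did it pass against vehicle. Pcna, the replication clamp, rose by 0.14 in RT-TMZ + Veh (adjusted p = 0.0326) and by 0.20 in CT2A + RT-TMZ + Veh (adjusted p = 0.049), and Prkdc, the end-joining kinase, fell by 0.38 in CT2A + RT-TMZ + Veh (adjusted p = 0.0414), each against Control + Veh. Sample medians were lower by 0.22 in CT2A + RT-TMZ + Veh than in Control + Veh, and these genes are given only as deposited.

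Of 27 listed genes of p53 and its targets 9 were measured. Against Control + Veh, 2 rose and 0 fell in RT-TMZ + Veh, where 17.8% of all probes were called. In CT2A + RT-TMZ + Veh 1 rose and 0 fell, where 21.1% of all probes were called. Cdkn1a, the p21 cell cycle inhibitor, was at 8.86, 9.18, 8.83 and 9.27 in CT2A + RT-TMZ + Veh, at 9.41, 9.67, 9.83 and 9.67 in RT-TMZ + Veh and at 7.82, 7.93, 7.88 and 8.28 in Control + Veh. It rose in all 6 treated groups, by 1.06 to 1.87 on the log2 scale, and was lower in CT2A + RT-TMZ + Veh than in RT-TMZ + Veh (−0.61, SE 0.13, limma, adjusted p = 0.0391). Sample medians were also lower by 0.27 in CT2A + RT-TMZ + Veh than in RT-TMZ + Veh, and Cdkn1a is given only as deposited. Of 28 listed proliferation genes 10 were measured, with 1 higher (Pcna) and 1 lower (Top2a, a topoisomerase of dividing cells, which fell by 0.48, adjusted p = 0.0434) in RT-TMZ + Veh, and 1 higher (Pcna) and 0 lower in CT2A + RT-TMZ + Veh, against Control + Veh. The shares of all probes called in these comparisons are those given above for the p53 list.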

How the data were processed

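RNA from the brains of 24 mice was counted on the nCounter Mouse Neuroinflammation panel. The authors normalized raw counts to positive controls and then to 13 reference genes in the nCounter software, and deposited log2 values, which are the only unit used. Raw counts were not used here. Low values stepped in whole counts, from which each sample's scaling factor and implied total (861319 to 1476268 counts) were computed. Groups came from the labels.

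Each of 15 pairs of groups was fitted on its own samples in limma 3.58.1 (R 4.3.3) with a mean-variance trend, with 2 interactions and an F test over 7 groups. P-values were two-sided and adjusted by Benjamini-Hochberg over 757 probes, with calls at 0.05. The fits were tested on simulated data. Python 3.11.15 was used for summaries.

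The members and gene lists were chosen with earlier results of these data known. Genes were named as those past the threshold, at most 6 in each direction, or otherwise the 4 with the smallest p, together with 18 members described whatever their values, the 6 with the smallest F test p and the 3 highest and 3 lowest in level. The alternatives were quantile normalization, centring on each sample's median, a pseudocount of 20, only probes above 20 normalized counts, all groups in 1 fit, no trend, the Welch test on log2 values that the methods name (the methods' t-test), replicate number as a block, each sample left out, and, chosen after seeing the data, Mef2c or Ttr as a covariate. Same-number samples deviated alike in 3 pairs of groups, from the data and not from the labels. These were CT2A + RT-TMZ + Shef6 EV with RT-TMZ + Shef6 EV (same-number correlations of 0.201 to 0.457), RT-TMZ + Shef6 EV with RT-TMZ + Veh (0.319 to 0.583), and CT2A + RT-TMZ + Shef6 EV with RT-TMZ + Veh (0.148 to 0.562). In every other pair of groups the lowest such correlation was 0.009 or below. With Control + Veh they were −0.543 to 0.294 for CT2A + RT-TMZ + Veh and −0.309 to 0.058 for RT-TMZ + Veh. In those comparisons the replicate block adjusted for a pairing that the data did not show.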

Additional observations from a re-analysis of the deposited data

Results flagged for a closer look

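In groups of 4 samples, 12 of the 120 sets of values (40 members in 3 groups) had 1 sample far from the other 3 by Dixon's test at the 95% level, which chance gives in about 1 of 20. Of the 12, 3 were in CT2A + RT-TMZ + Veh, 2 in RT-TMZ + Veh and 7 in Control + Veh.

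In CT2A + RT-TMZ + Veh, Mpg was at 6.51 in replicate 4 against 7.22 to 7.34 in the others, Fen1 at 8.14 in replicate 4 against 8.44 to 8.5, and Fancg at 8.56 in replicate 2 against 8.1 to 8.16. In RT-TMZ + Veh, Bard1 was at 4.15 in replicate 1 against 4.76 to 4.84 in the others, and Mdc1 at 7.88 in replicate 1 against 8.22 to 8.28.

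In Control + Veh, replicate 4 was high for Dna2 (5.55 against 5.18 to 5.22) and Ercc2 (9.6 against 9.53 to 9.54) and low for Xrcc6 (8.73 against 8.88 to 8.9). Replicate 3 was low for H2ax (6.55 against 6.9 to 6.91), Mdc1 (8.14 against 8.26 to 8.28) and Parp2 (9.06 against 9.19 to 9.21), and replicate 2 was low for Rad9a (6.83 against 7.03 to 7.06). The cause of these values was not tested.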

How the results depend on the processing

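Of the alternative values for single genes, 1023 kept both direction and side of the threshold, 97 lost the call, 44 gained it and 7 changed sign. Counts of members called moved as follows, and the cause was not tested. An unchanged count need not hold the same genes. For most of these counts, and for those with a sample left out, the share of all probes called was not set beside them. Whether such a move was particular to the members was not tested. For RT-TMZ + Veh against Control + Veh (2 called) quantile normalization gave 4, the methods' t-test 0, the replicate block 0 and the Ttr covariate 1. Only probes above background, all groups in 1 fit, no trend and the Mef2c covariate gave 3 each. For CT2A + RT-TMZ + Veh against Control + Veh (5) they were 8 with only probes above background, 10 with all groups in 1 fit, 0 by the methods' t-test, 0 with the replicate block, 10 with Mef2c and 9 with Ttr. Centring and the pseudocount gave 6 each there, and quantile normalization and no trend 7 each. For CT2A + RT-TMZ + Veh against RT-TMZ + Veh (1) they were 0 after centring, 4 after quantile normalization, 8 in 1 fit, 0 by the methods' t-test, 0 without trend, 0 with the replicate block, 4 with Mef2c and 0 with Ttr.

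Against CT2A + RT-TMZ + Veh (0 called), CT2A + RT-TMZ + Shef6 EV had 9 in 1 fit and 3 with Mef2c, while for UCI-191 EV with tumor there were 1 with a pseudocount of 20, 1 above background, 8 in 1 fit and 1 without trend. Against Control + Veh (1 each), RT-TMZ + UCI-191 EV had 6 after centring, 4 after quantile normalization, 2 with the pseudocount, 2 in 1 fit, 0 by the methods' t-test, 2 with the replicate block and 0 with Ttr. CT2A + RT-TMZ + Shef6 EV had 4 after quantile normalization, 2 in 1 fit, 0 by the methods' t-test, 2 without trend, and 0 with the replicate block, Mef2c or Ttr. CT2A + RT-TMZ + UCI-191 EV had 2 after quantile normalization, 2 with the replicate block and 0 with Mef2c or Ttr.

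CT2A + RT-TMZ + UCI-191 EV against RT-TMZ + UCI-191 EV (0) had 6 after centring, and against CT2A + RT-TMZ + Shef6 EV (0) 2 after centring, 2 after quantile normalization and 1 without trend. The Shef6 EV interaction (0) had 1 after quantile normalization, 5 in 1 fit and 2 with the replicate block, and the UCI-191 EV interaction (0) 1 in 1 fit and 1 with Mef2c. A Welch one-way test over the 7 groups called 5 members (12 by the F test). The F test called 13 after centring, 15 after quantile normalization, 11 without trend, 11 with Mef2c and 10 with Ttr. With the replicate block the F test called 9 (Bard1, Ogg1 and Rpa1 were lost), and the block changed no other count.

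All 7 reversals came with Mef2c as a covariate. In CT2A + RT-TMZ + UCI-191 EV against RT-TMZ + UCI-191 EV they were Fancc (−0.618), Rpa1 (0.54) and Parp1 (0.296), and against CT2A + RT-TMZ + Shef6 EV they were Parp1 (1.021), H2ax (−0.546), Nbn (−0.392) and Atm (0.441). Mef2c did not overlap between the groups in either comparison.

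With each sample left out in turn, the counts ran 0 to 4 for RT-TMZ + Veh and 1 to 8 for CT2A + RT-TMZ + Veh against Control + Veh, and 0 to 6 for CT2A + RT-TMZ + Veh against RT-TMZ + Veh. Against vehicle they ran 0 to 1 for RT-TMZ + Shef6 EV, 0 to 6 for CT2A + RT-TMZ + Shef6 EV and 0 to 4 for CT2A + RT-TMZ + UCI-191 EV. Against Control + Veh they ran 0 to 1 for RT-TMZ + Shef6 EV, 0 to 3 for RT-TMZ + UCI-191 EV, 0 to 1 for CT2A + RT-TMZ + Shef6 EV and 1 to 2 for CT2A + RT-TMZ + UCI-191 EV. RT-TMZ + UCI-191 EV against RT-TMZ + Shef6 EV ran 0 to 1, the interactions 0 to 4 (Shef6) and 0 to 3 (UCI-191), and the F test 7 to 14.

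The share of called probes that were higher moved by over 10 percentage points with scaling in RT-TMZ + Veh against Control + Veh (68.1% as deposited, 44.6% after quantile normalization), in CT2A + RT-TMZ + Veh against RT-TMZ + Veh (17.5%, 50.9%), in RT-TMZ + UCI-191 EV against Control + Veh (74.8%, 38.2% after centring) in CT2A + RT-TMZ + UCI-191 EV against RT-TMZ + UCI-191 EV (40.2%, 82.4% after centring) and against CT2A + RT-TMZ + Shef6 EV (62.0%, 75.3% after centring), in CT2A + RT-TMZ + Shef6 EV against its vehicle group (73.7%, 53.8% after centring) and against Control + Veh (63.2%, 48.3% after quantile normalization), and in RT-TMZ + Shef6 EV against Control + Veh (73.2%, 46.5% after quantile normalization). The share also moved in CT2A + RT-TMZ + Veh against Control + Veh (36.9%, 72.8% after centring). Rad51b, Exo1 and Brca1, under 20 normalized counts on average, limit what is seen of mismatch repair and homologous recombination at this depth.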
